A study of Arabidopsis thaliana with 36 samples.

Results

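The genes described are 10 Arabidopsis thaliana genes for enzymes that make or inactivate brassinosteroids, taken by their locus identifiers from the 32833 genes of the deposited count table. The 8 synthesis genes are DWF1 (AT3G19820), DET2 (AT2G38050), DWF4 (AT3G50660), CPD (AT5G05690), ROT3 (AT4G36380), CYP90D1 (AT3G13730), BR6OX1 (AT5G38970) and BR6OX2 (AT3G30180). The 2 inactivation genes are BAS1 (AT2G26710) and SOB7 (AT1G17060, also called CYP72C1). All 10 passed the filter on low counts, as did 21562 genes in all. RNA-seq libraries were made from whole seedlings, 7 days old, raised at 22 °C in continuous white light with a ratio of red to far-red light of 1.58. Seedlings were sampled at 0 h, before transfer, and after 1 h and 8 h in simulated shade, white light with added far-red light and a ratio of 0.02. The 4 genotypes were the Col-0 wild type (WT), the mutants hy5 and pif457, and their combination hy5 pif457, with 3 biological replicates in each of the 12 groups of genotype and time. The labels name the mutants without their alleles. HY5 is a bZIP transcription factor of light-grown development, and pif457 is mutated in PIF4, PIF5 and PIF7, bHLH factors under which shaded seedlings elongate. White-light groups at 1 or 8 h were not part of the design, so shade and elapsed time cannot be told apart.

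Brassinosteroids are plant steroid hormones that promote cell elongation, and mutants unable to make them are dwarfs. They are made from the sterol campesterol by a reductase and a chain of cytochrome P450 enzymes, which act in parallel branches. DWF1 reduces the sterol side chain to give campesterol, and DET2 is a steroid reductase. DWF4 hydroxylates the side chain, a step widely treated as rate-limiting, CPD oxidises the steroid ring, and ROT3 and CYP90D1 are overlapping side-chain hydroxylases. BR6OX1 and BR6OX2 oxidise the ring at the end of the pathway, and BR6OX2 also makes brassinolide, the most active form. BAS1 and SOB7 are P450 enzymes that inactivate the hormone. In the known feedback, BZR1 and BES1, the transcription factors of the pathway, repress several synthesis genes when the hormone is sensed.

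The stretch before the gene start is shown for 4 genes chosen to set genes with large and small shade responses beside each other. In WT, DWF4 responded at 1 h, BAS1 and CPD responded at both times, BAS1 most at 1 h, and DWF1 had no detected response. Sequences are RefSeq's TAIR10.1, 5′ to 3′ on the gene's strand, and each ends at the base before the annotated start. Capitals mark CACATG on either strand, an E-box variant that PIF proteins are known to bind.
BAS1, chr2:11380213-11380462, plus strand: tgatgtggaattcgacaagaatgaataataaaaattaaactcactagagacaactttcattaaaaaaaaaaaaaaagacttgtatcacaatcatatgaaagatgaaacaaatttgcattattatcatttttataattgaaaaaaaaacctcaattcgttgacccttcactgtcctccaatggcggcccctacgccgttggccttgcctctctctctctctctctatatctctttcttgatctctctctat
DWF4, chr3:18817406-18817655, minus strand: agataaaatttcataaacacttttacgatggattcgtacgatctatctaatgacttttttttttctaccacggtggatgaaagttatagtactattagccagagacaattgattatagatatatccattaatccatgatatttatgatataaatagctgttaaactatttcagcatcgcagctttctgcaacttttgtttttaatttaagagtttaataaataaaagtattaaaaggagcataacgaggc
CPD, chr5:1706949-1707198, minus strand: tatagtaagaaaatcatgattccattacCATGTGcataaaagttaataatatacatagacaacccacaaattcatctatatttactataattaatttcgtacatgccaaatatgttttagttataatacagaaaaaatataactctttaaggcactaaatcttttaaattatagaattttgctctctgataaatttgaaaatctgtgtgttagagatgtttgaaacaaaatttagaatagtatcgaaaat
DWF1, chr3:6882316-6882565, minus strand: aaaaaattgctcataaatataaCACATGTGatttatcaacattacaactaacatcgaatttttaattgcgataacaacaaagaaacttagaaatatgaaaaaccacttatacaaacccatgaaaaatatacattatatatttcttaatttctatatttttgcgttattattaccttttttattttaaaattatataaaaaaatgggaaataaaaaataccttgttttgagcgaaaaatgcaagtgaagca
CPD carried 1 match, DWF1 carried 2 that overlap as CACATGTG, and BAS1 and DWF4 carried none.

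Motifs were searched on both strands of windows of 300 bases, from 250 before to 50 after each gene start. The start is the outer end of the annotated gene, so where a gene has several transcripts some may start further downstream. CACATG was found in 6 of the 10 genes, CPD, BR6OX1, CYP90D1, DET2, DWF1 and SOB7, and in 12.9% of 27443 protein-coding promoters of the same length. The G-box CACGTG, bound by PIF proteins and HY5, was in 0 of 10 windows and in 7.7% of all promoters. The elements CGTGTG and CGTGCG, bound by BZR1, were in 0 of 10 windows each and in 6.5% and 2% of all promoters. The wider E-box CANNTG, which includes CACGTG and CACATG, was in 9 of 10 windows, all but that of BR6OX2, and in 61.7% of all. The ACGT core, which the G-box also contains, was in 2 of 10 windows, DWF1 and SOB7, and in 49.9% of all. These letters describe the windows searched and show neither binding nor its absence.

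**Figure D1:**
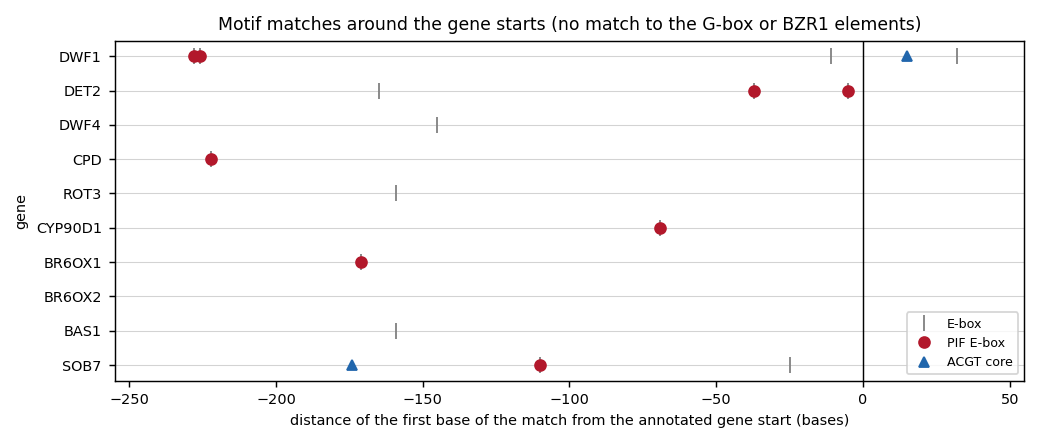
Motif matches in the 10 windows by distance in bases from the annotated gene start (0). Circles are CACATG, bars CANNTG and triangles ACGT; every CACATG match is also a CANNTG match and lies over its bar. DET2 has CACATG matches at -37 and -5, and BR6OX2 has no match at all.

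Library totals ran from 30846115 to 58025421 counts. In 12 libraries, the 9 of hy5 pif457 and the 3 of pif457 at 8 h, rRNA genes took 6.01% to 11.6% of counts, against 0.467% to 2.63% in the other 24. The summed level of 20 root marker genes, in CPM (read counts scaled to library size after TMM normalisation), also varied within and between groups, from 7.01 to 74.1 CPM in WT at 8 h and from 30.7 to 612 CPM in pif457 at 8 h, and 1 marker, PRP1, was at 0 in a WT library at 8 h. The 4 leaf markers were the photosynthesis genes RBCS1A, LHCB3, LHCA1 and PSBO1. A change in their transcript need not mean a change in the share of leaf tissue. In WT at 1 h, 0 of the 20 root markers and 0 of the 4 leaf markers were called, against 5.2% of all genes tested. At 8 h in WT, 0 root markers and 2 leaf markers, both higher, were called, against 19.2%. From 1 h to 8 h in WT, 4 root markers were called lower and 2 leaf markers higher, against 8.16% of all genes. In pif457 at 8 h, 5 root markers were called higher than at 0 h, against 9.94%. The check of the genotypes showed HY5 at 27.9% of WT in hy5 at 0 h and at 28.6% in hy5 pif457. PIF5 stood at 5.21% of WT in pif457 at 0 h and PIF7 at 9.6%, while PIF4 transcript stood at 80.9% (edgeR adjusted p = 0.849). In hy5 pif457, PIF4 transcript at 0 h was 115% of that in WT (adjusted p = 0.564), and at 1 h it was called higher, with 157% (adjusted p = 0.0471). By 8 h PIF4 transcript was called lower than in WT in both of these mutants. The pif457 level was then 50.3% of WT (adjusted p = 0.00193). That of hy5 pif457 was 66.5% (adjusted p = 0.039). For pif457 at 1 h, a level of 61.6% did not pass (adjusted p = 0.0694). The shade marker PIL1 went from 0.416 ± 0.132 CPM (SD, n = 3) in WT at 0 h to 46.8 ± 6.13 CPM at 1 h.

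Levels differed widely between the genes. Per kilobase of the longest annotated transcript, the level in WT at 0 h was 164 ± 6.4 CPM per kb for DWF1 (SD, n = 3) and 45.2 ± 4.12 for CPD. DET2 followed at 11.8 ± 0.68 and BR6OX2 at 8.3 ± 0.371 CPM per kb. DWF4 stood at 4.47 ± 0.478, ROT3 at 3.46 ± 0.695, BAS1 at 2.59 ± 0.205, CYP90D1 at 2.45 ± 0.156 and SOB7 at 1.79 ± 0.56 CPM per kb. BR6OX1 was lowest at 0.798 ± 0.269 CPM per kb and fell to 21 counts in its lowest library, so its values carry the most counting error. All levels below are in this CPM and hold for 1 gene across libraries.

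**Figure D2:**
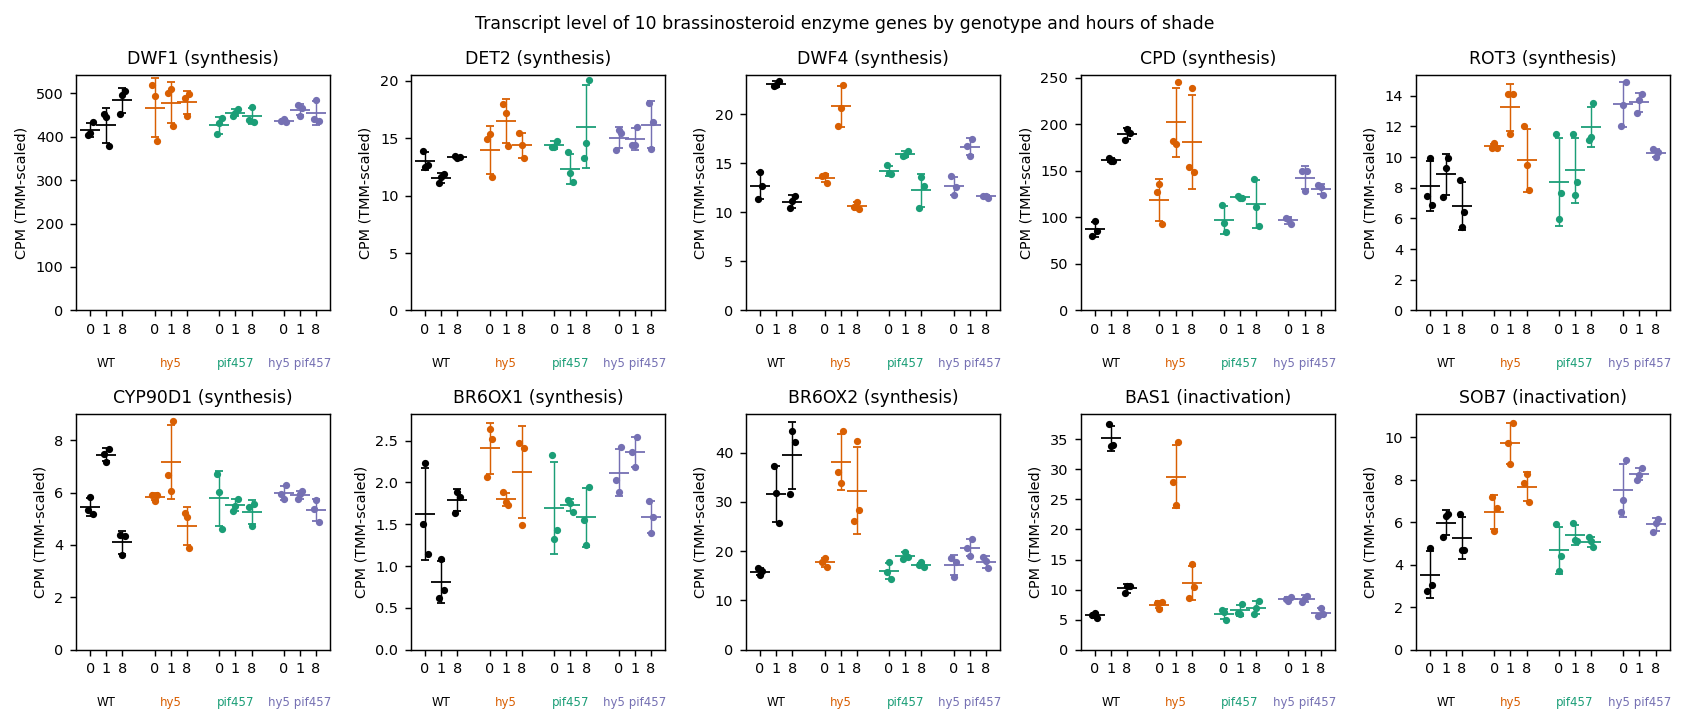
Level of each gene (CPM after TMM scaling, axes from 0) by genotype and hours of shade. Points are libraries, bars the mean and SD of 3. BAS1 in WT and hy5 at 1 h sits above every other group, with library values from 24 CPM upwards, and DWF1 stays between 379 and 518 CPM in all 36 libraries.

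Shade was first compared with 0 h in WT. After 1 h, 7 of the 10 genes were called, which means an adjusted p below 0.05 (edgeR quasi-likelihood F-test, Benjamini-Hochberg adjustment), against 5.2% of all genes tested. The 10 genes were chosen with earlier results of these data known, so the shares of all genes are given for scale only. BAS1, BR6OX2, CPD, DWF4, SOB7 and CYP90D1 rose and BR6OX1 fell. After 8 h, 5 of 10 were called, where 19.2% of all genes were. BR6OX2, CPD, BAS1 and SOB7 were higher than at 0 h and CYP90D1 was lower. The median log2 difference of the 10 genes was 0.61 at 1 h and 0.18 at 8 h, and that of all genes 0.02 and -0.03. Between 1 h and 8 h in WT, 4 of 10 were called, against 8.16% of all. BAS1, DWF4 and CYP90D1 fell and BR6OX1 rose. In bulk tissue, fewer cells of a type and less RNA per cell cannot be told apart.

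The same comparison in the mutants gave fewer calls. In hy5, 5 of 10 genes were called at 1 h, all higher, against 6.77% of all genes, and 4 of 10 at 8 h, against 9.27%. In pif457, 0 of 10 were called at 1 h, where 0.227% of all genes were, and 0 of 10 at 8 h, where 9.94% were. At an unadjusted p under 0.05 there were 1 and 2 of the 10, and 1533 and 6054 of all 21562 genes. DESeq2 called 0 of the 10 at both times, and 114 and 2725 genes in all. In hy5 pif457, 1 of 10 was called at 1 h, DWF4, against 0.181% of all, and 0 of 10 at 8 h, against 10.9%. At 8 h, 2 of the 10 and 6388 of all 21562 genes had an unadjusted p under 0.05. DESeq2 called 1 of the 10, CPD, and 3312 genes in all.

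**Figure D3:**
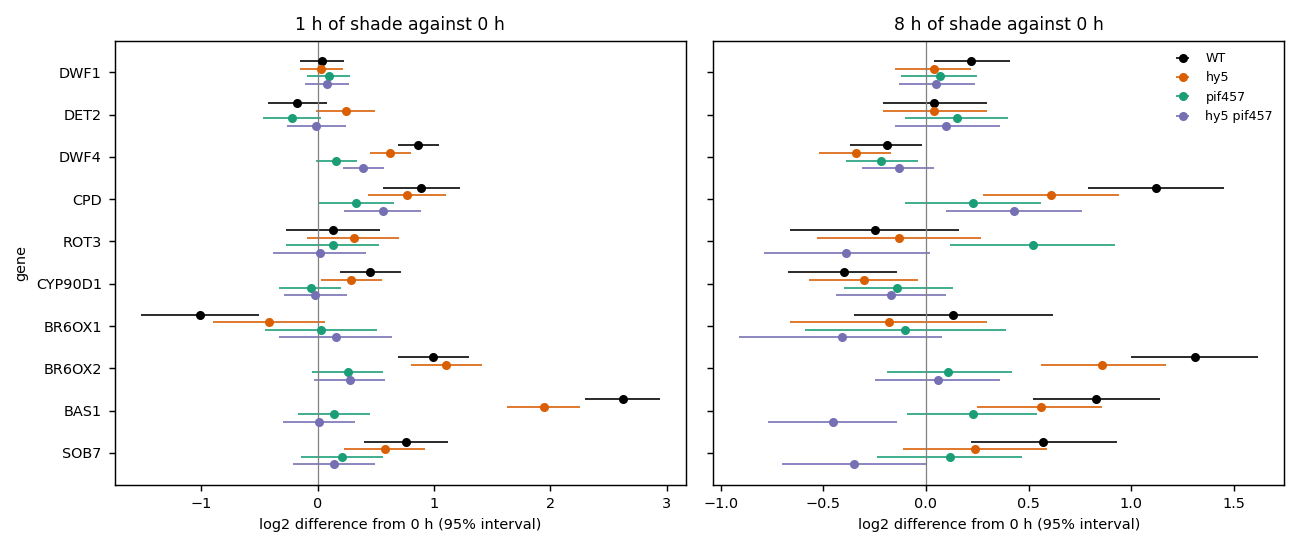
Log2 difference from 0 h for each gene and genotype after 1 h (left) and 8 h (right), with 95% intervals from the edgeR fit. The panels have different scales. At 1 h the BAS1 points of WT (2.62) and hy5 (1.94) lie far right of those of pif457 (0.14) and hy5 pif457 (0.01).

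The first enzymes of the pathway moved least. DWF1, the sterol reductase, measured 403, 408 and 433 CPM in WT at 0 h, 453, 445 and 379 CPM at 1 h and 451, 496 and 505 CPM at 8 h. The groups at 0 h and 1 h overlap, and the log2 difference at 8 h, 0.22 ± 0.09 (SE), missed the threshold (adjusted p = 0.0867). DWF1 was called in 0 of the 27 comparisons made, and the group means spanned 1.17-fold. DET2, the steroid reductase, measured 13.9, 12.5 and 12.7 CPM in WT at 0 h and 11.1, 11.6 and 11.9 CPM at 1 h, a log2 difference of -0.18 with a 95% interval from -0.43 to 0.08. Its WT groups at 0 h and 1 h do not overlap, yet the difference did not pass (adjusted p = 0.432). The gene ends of DWF1, DET2 and CPD overlap a neighbour's by 20, 35 and 20 bases.

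DWF4, the side-chain hydroxylase, rose at 1 h and was back near its starting level at 8 h. It measured 11.4, 14.1 and 12.7 CPM in WT at 0 h, 22.9, 23 and 23.4 CPM at 1 h and 10.4, 11.2 and 11.7 CPM at 8 h. All WT libraries at 1 h lie above all others of WT. The log2 difference was 0.86 ± 0.09 at 1 h (adjusted p = 3.17e-08) and -0.19 ± 0.09 at 8 h (adjusted p = 0.121), and from 1 h to 8 h it fell by 1.06 (adjusted p = 4.49e-09). In hy5 the libraries measured 13.7, 13.8 and 13 CPM at 0 h and 18.8, 20.6 and 23 CPM at 1 h, a rise of 0.62 ± 0.09 (adjusted p = 8.98e-06). At 8 h in hy5 it fell by 0.34 relative to 0 h (adjusted p = 0.00999), a call lost when only the groups compared were fitted (adjusted p = 0.13). In pif457 the libraries went from 14.8, 14 and 13.9 CPM to 15.7, 15.9 and 16.3 CPM at 1 h. These groups do not overlap, but the log2 difference of 0.16 ± 0.08 did not pass (adjusted p = 0.739). At 8 h in pif457 the difference was -0.22 ± 0.09 (adjusted p = 0.0951), and without pif457 8 h replicate 2 it was -0.34 and was called (adjusted p = 0.0271). In hy5 pif457 DWF4 rose by 0.39 ± 0.09 at 1 h, from 13.7, 11.8 and 12.6 CPM to 16.8, 15.8 and 17.5 CPM (adjusted p = 0.0495). That call was lost without any 1 of the 6 libraries, with adjusted p from 0.0601 to 0.368.

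CPD, the ring oxidase, rose in WT by 1 h and stayed high at 8 h. It measured 80.4, 96 and 85.4 CPM at 0 h, 164, 160 and 160 CPM at 1 h and 183, 195 and 191 CPM at 8 h, with no overlap between the times. The log2 differences from 0 h were 0.89 ± 0.16 (adjusted p = 0.00066) and 1.12 ± 0.16 (adjusted p = 1.39e-05). In hy5 CPD measured 127, 136 and 93.2 CPM at 0 h and 182, 179 and 245 CPM at 1 h, a rise of 0.77 ± 0.16 (adjusted p = 0.00246). Without hy5 1 h replicate 3, the highest library, that call was lost (adjusted p = 0.0683), and it was lost with only the groups compared (adjusted p = 0.0657) or with those and the replicate number as a block (adjusted p = 0.0797). At 8 h in hy5 it was higher by 0.61 ± 0.16 (adjusted p = 0.0152), a call lost with only the groups compared (adjusted p = 0.258), without hy5 8 h replicate 2 (0.34, adjusted p = 0.241) or without hy5 0 h replicate 3 (adjusted p = 0.144). In pif457 the log2 difference was 0.33 ± 0.16 at 1 h and 0.23 ± 0.16 at 8 h, and in hy5 pif457 0.56 ± 0.16 and 0.43 ± 0.16. None of these 4 differences passed in the fit of all libraries, but both of hy5 pif457 passed when only the groups compared were fitted (adjusted p = 0.0164 and 0.000844).

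The other hydroxylases, ROT3 and CYP90D1, had small responses. ROT3 measured 7.49, 9.93 and 6.85 CPM in WT at 0 h, 7.38, 9.31 and 9.93 CPM at 1 h and 8.49, 5.45 and 6.44 CPM at 8 h. The 3 groups overlap, and ROT3 was called in 0 of the 8 comparisons with 0 h. With only the groups compared it was called lower at 8 h in hy5 pif457 (-0.34, adjusted p = 0.0234). Without pif457 0 h replicate 1 it was called higher at 8 h in pif457 (0.79, adjusted p = 0.0109, against 0.52 and 0.0834 with all libraries). The gene overlaps AT4G36370, listed at 0 counts in WT at 0 h, by 83 bases. CYP90D1 measured 5.32, 5.83 and 5.17 CPM in WT at 0 h, 7.49, 7.18 and 7.66 CPM at 1 h and 4.38, 3.6 and 4.35 CPM at 8 h. These groups do not overlap, and CYP90D1 rose by 0.45 ± 0.13 at 1 h (adjusted p = 0.0364) and fell by 0.4 at 8 h (adjusted p = 0.0298). The fall from 1 h to 8 h, by 0.86 (adjusted p = 5.09e-05), was called in every alternative that gave a value. The calls against 0 h were lost without most single libraries. At 1 h these were WT 0 h replicates 1 and 3 and all 3 of WT 1 h, with adjusted p from 0.0801 to 0.172. At 8 h they were all 3 of WT 0 h and WT 8 h replicates 2 and 3, with adjusted p from 0.0526 to 0.172. Adding the root marker score to the model left differences of 0.44 at 1 h (adjusted p = 0.0537) and -0.37 at 8 h (adjusted p = 0.051).

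The oxidases at the end of the pathway differed from each other. BR6OX2, the brassinolide-forming enzyme, measured 16.5, 15.1 and 16 CPM in WT at 0 h, 37.2, 31.8 and 25.8 CPM at 1 h and 31.6, 44.4 and 42.2 CPM at 8 h. Every shade library lies above every library at 0 h. The log2 differences were 0.99 ± 0.15 (adjusted p = 4.08e-05) and 1.31 ± 0.15 (adjusted p = 3.43e-07). In hy5 BR6OX2 went from 17.8, 18.6 and 16.8 CPM to 36, 33.8 and 44.4 CPM at 1 h and 26.2, 42.3 and 28.3 CPM at 8 h, rises of 1.1 ± 0.15 (adjusted p = 7.06e-06) and 0.86 ± 0.15 (adjusted p = 0.00022). The second was lost with only the groups compared (adjusted p = 0.0662). In pif457 all 9 libraries lay between 14.4 and 19.9 CPM, and in hy5 pif457 between 14.8 and 22.4 CPM. BR6OX1 measured 1.5, 2.23 and 1.15 CPM in WT at 0 h, 0.617, 1.09 and 0.709 CPM at 1 h and 1.64, 1.89 and 1.83 CPM at 8 h. It fell by 1.01 at 1 h (SE 0.25, adjusted p = 0.0134) and rose by 1.15 ± 0.25 from 1 h to 8 h (adjusted p = 0.00307). Both calls were lost with only the groups compared (adjusted p = 0.233 and 0.065). The fall was also lost without WT 0 h replicate 2 (adjusted p = 0.0657), WT 1 h replicate 1 (adjusted p = 0.0671) or WT 1 h replicate 3 (adjusted p = 0.061).

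Of the inactivation genes, BAS1 had the largest response of the 10. It measured 5.76, 6.16 and 5.26 CPM in WT at 0 h, 37.6, 33.9 and 34 CPM at 1 h and 9.36, 10.6 and 10.6 CPM at 8 h. The 3 times do not overlap. BAS1 rose 6.14-fold at 1 h (log2 2.62 ± 0.16, adjusted p = 2.83e-12) and was 1.78-fold above 0 h at 8 h (0.83 ± 0.15, adjusted p = 0.000315). In hy5 it went from 7.74, 6.84 and 7.91 CPM to 27.9, 24 and 34.5 CPM at 1 h and 8.59, 14.2 and 10.4 CPM at 8 h. The rises were 1.94 ± 0.15 (adjusted p = 6.22e-10) and 0.56 ± 0.15 (adjusted p = 0.0169). The second was lost without hy5 8 h replicate 2 (0.33, adjusted p = 0.188), without hy5 0 h replicate 2 (adjusted p = 0.0776) or with only the groups compared (adjusted p = 0.224). In pif457 the libraries measured 6.65, 6.27 and 5.01 CPM at 0 h, 6.19, 5.92 and 7.61 CPM at 1 h and 5.96, 6.88 and 8.11 CPM at 8 h, and the groups overlap. In hy5 pif457 they measured 8.51, 8.12 and 8.78 CPM at 0 h, 7.91, 8.61 and 8.99 CPM at 1 h and 5.55, 6.98 and 6 CPM at 8 h. The libraries at 8 h lie below those at 0 h, but the difference of -0.45 ± 0.15 did not pass (adjusted p = 0.054), although it did when only these groups were fitted (adjusted p = 0.0213).

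SOB7, the other inactivating P450, measured 2.75, 4.81 and 3.07 CPM in WT at 0 h, 5.29, 6.31 and 6.38 CPM at 1 h and 6.41, 4.72 and 4.7 CPM at 8 h. The groups at 0 h and 1 h do not overlap, and those at 0 h and 8 h do. It rose by 0.76 ± 0.17 at 1 h (adjusted p = 0.00796) and 0.57 ± 0.17 at 8 h (adjusted p = 0.0209) in WT, and by 0.58 ± 0.17 at 1 h in hy5 (adjusted p = 0.0355). All 3 calls were lost with only the groups compared (adjusted p = 0.208, 0.157 and 0.0633). Without WT 0 h replicate 1 or 3 the WT calls were lost at 1 h (adjusted p = 0.1 and 0.0761) and at 8 h (adjusted p = 0.156 and 0.113), and the second also without WT 8 h replicate 1 (adjusted p = 0.131). The hy5 call was lost without hy5 0 h replicates 2 or 3 or hy5 1 h replicates 1 or 3, with adjusted p from 0.0654 to 0.196, and with the root marker score as a covariate (adjusted p = 0.187). The summed root markers ran from 43 to 117 CPM in hy5 at 0 h and from 314 to 395 CPM at 1 h. SOB7 also overlaps AT1G17065 on the opposite strand over 1728 bases. AT1G17065 was listed at 0 counts in the WT libraries at 0 h, and without a stated strand setting reads of the 2 genes cannot be told apart.

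The mutants were next compared with WT at the same time. At 0 h, before shade, 1 of 10 genes was called in hy5, against 9.49% of all genes, and 0 of 10 in pif457, against 0.0835%. In pif457 at 0 h, 1 of the 10 and 1383 of all 21562 genes had an unadjusted p under 0.05. DESeq2 called 0 of the 10 and 38 genes in all. In hy5 pif457 at 0 h, 3 of 10 were called, against 8.94%. SOB7 was higher than in WT in hy5, at 7.19, 5.61 and 6.69 CPM (log2 0.87 ± 0.17, adjusted p = 0.00208), and in hy5 pif457, at 6.51, 7.07 and 8.93 CPM (1.08 ± 0.17, adjusted p = 0.000292). Both groups lie above the 3 WT libraries at 0 h. The first of these was lost with only the groups compared (adjusted p = 0.143). In hy5, BR6OX1 was also called without WT 0 h replicate 2 (0.86, adjusted p = 0.0247, against 0.56 and 0.126), and CPD without hy5 0 h replicate 3 (0.58, adjusted p = 0.0452, against 0.44 and 0.0773). Of the leaf markers, 2 of 4 were called higher in hy5 at 0 h, and 1 of 20 root markers in hy5 pif457. ROT3, at 12, 13.4 and 14.9 CPM in hy5 pif457, was higher by 0.73 ± 0.2 (adjusted p = 0.0201), and BAS1 by 0.56 ± 0.15 (adjusted p = 0.0207). The summed root markers ran from 50.8 to 110 CPM in WT at 0 h and from 171 to 367 CPM in hy5 pif457. A model with the root marker score gave a difference of 0.49 for ROT3 (adjusted p = 0.063) and 0.52 for BAS1 (adjusted p = 0.0523). Without WT 0 h replicates 1 or 3 or hy5 pif457 0 h replicates 2 or 3, the ROT3 call was lost, with adjusted p from 0.0645 to 0.131. The BAS1 call was lost without WT 0 h replicates 1 or 3 or any replicate of hy5 pif457, with adjusted p from 0.0672 to 0.131.

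At 1 h, 3 of 10 genes were called in hy5 against WT, all higher, where 4.27% of all genes were called. They were BR6OX1, at 1.89, 1.77 and 1.73 CPM (1.16 ± 0.25, adjusted p = 0.00625), DET2, at 18, 17.2 and 14.3 CPM (0.52 ± 0.12, adjusted p = 0.0136), and SOB7, at 9.72, 8.74 and 10.7 CPM (0.69 ± 0.17, adjusted p = 0.0176). With only the groups compared none of the 3 was called (adjusted p = 0.0969, 0.0914 and 0.0692), nor without WT 1 h replicate 1 (adjusted p = 0.0593, 0.0653 and 0.122). The DET2 call was also lost without hy5 1 h replicate 1 (adjusted p = 0.0896) or 2 (adjusted p = 0.0575), and the SOB7 call without hy5 1 h replicate 1 (adjusted p = 0.0607) or 3 (adjusted p = 0.0819). The summed root markers ran from 77.4 to 279 CPM in WT at 1 h, below the range of hy5, and their part in these differences was not tested further than the covariate fit, which kept all 3 calls. Of the leaf markers, 2 of 4 were called higher in hy5 at 1 h.

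In pif457 at 1 h, 4 of 10 genes were called against WT, where 2.57% of all genes were, and in hy5 pif457 4 of 10, against 7.57%. They were BAS1, BR6OX2 and DWF4, lower than in WT, and BR6OX1, higher, in each mutant. BAS1 stood at 18.7% of the WT level in pif457 (-2.42 ± 0.15, adjusted p = 8.26e-12) and at 24.2% in hy5 pif457 (-2.05 ± 0.15, adjusted p = 3.17e-10). DWF4 stood at 68.9% (-0.54 ± 0.08, adjusted p = 8.95e-05) and 72.2% (-0.47 ± 0.08, adjusted p = 0.000444). BR6OX2 stood at 60.3% (-0.73 ± 0.15, adjusted p = 0.00242) and 65.7% (-0.61 ± 0.15, adjusted p = 0.00852). Both BR6OX2 calls were lost without WT 1 h replicate 1, its highest WT library at that time (adjusted p = 0.0645 and 0.0859). That of pif457 was lost with only the groups compared (adjusted p = 0.0655), and that of hy5 pif457 without its replicate 2 (adjusted p = 0.0643). BR6OX1 was higher by 1.1 ± 0.25 in pif457, at 1.79, 1.76 and 1.65 CPM (adjusted p = 0.00749, and 0.123 with only the groups compared), and by 1.55 ± 0.25 in hy5 pif457, at 2.37, 2.18 and 2.54 CPM (adjusted p = 9.5e-05). With only the groups compared and the replicate number as a block, ROT3 (0.61, adjusted p = 0.0199) and DET2 (0.36, adjusted p = 0.0476) were also called in hy5 pif457, as they were by DESeq2 (adjusted p = 0.0336 and 0.0484). With only the groups compared CPD was called lower in pif457 (-0.39, adjusted p = 0.0236).

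At 8 h, 0 of 10 genes were called in hy5 against WT, where 2.61% of all genes were. At an unadjusted p under 0.05 there were 2 of the 10 and 4149 of all 21562 genes. DESeq2 called 1 of the 10, SOB7, and 1048 genes in all. Without hy5 8 h replicate 2, BR6OX2 was called lower (-0.58, adjusted p = 0.0288, against -0.29 and 0.273 with all libraries), and without WT 8 h replicate 1 SOB7 was called higher (0.71, adjusted p = 0.0341, against 0.54 and 0.0831). Of 20 root markers, 4 were called higher in hy5 than in WT at 8 h and 14 in pif457, where their median log2 difference was 2.53, while 0 were called in hy5 pif457. In pif457, 4 of 10 were called, against 11.3%, and in hy5 pif457, 5 of 10, against 18.7%. BR6OX2 stood at 43.8% of WT in pif457 (-1.19 ± 0.15, adjusted p = 3.21e-06), while hy5 pif457 stood at 45.2% (-1.15 ± 0.15, adjusted p = 4.77e-06). CPD stood at 60.1% (-0.73 ± 0.16, adjusted p = 0.00402) and 68.9% (-0.54 ± 0.16, adjusted p = 0.0212), and BAS1 at 68.7% (-0.54 ± 0.15, adjusted p = 0.021) and 60.8% (-0.72 ± 0.15, adjusted p = 0.00178). ROT3 was higher, at 176% in pif457, with 11.1, 11.3 and 13.5 CPM (0.82 ± 0.2, adjusted p = 0.00888), and at 151% in hy5 pif457 (0.59 ± 0.2, adjusted p = 0.0372). CYP90D1 was higher in hy5 pif457 by 0.37 ± 0.13 (adjusted p = 0.0461), a call lost without any 1 of the 6 libraries, with adjusted p from 0.0596 to 0.223. DET2 was called higher there without hy5 pif457 8 h replicate 2 (0.34, adjusted p = 0.0468, against 0.27 and 0.123).

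Of these calls at 8 h, those of BR6OX2 in both mutants and of BAS1 in hy5 pif457 held in every alternative that gave a value. WT 8 h replicate 2 had the lowest root marker score of all libraries. Without it the calls of ROT3 and BAS1 in pif457 were lost (adjusted p = 0.0965 and 0.0593), as were those of CPD and ROT3 in hy5 pif457 (adjusted p = 0.0522 and 0.153). In a model with the root marker score, the pif457 differences were 0.42 for ROT3 (adjusted p = 0.319), -0.62 for BAS1 (adjusted p = 0.0725) and -0.58 for CPD (adjusted p = 0.0902), and with only the groups compared these 3 had adjusted p of 0.132, 0.17 and 0.137. The calls were lost for ROT3 in pif457 without its replicate 3 (adjusted p = 0.0604), for BAS1 without WT 8 h replicate 3 (adjusted p = 0.0603), for CPD in hy5 pif457 without WT 8 h replicate 3 or its own replicates 1 or 3 (adjusted p from 0.0617 to 0.0936), and for ROT3 there without WT 8 h replicate 3 or any of its own (adjusted p from 0.0526 to 0.134).

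**Figure D4:**
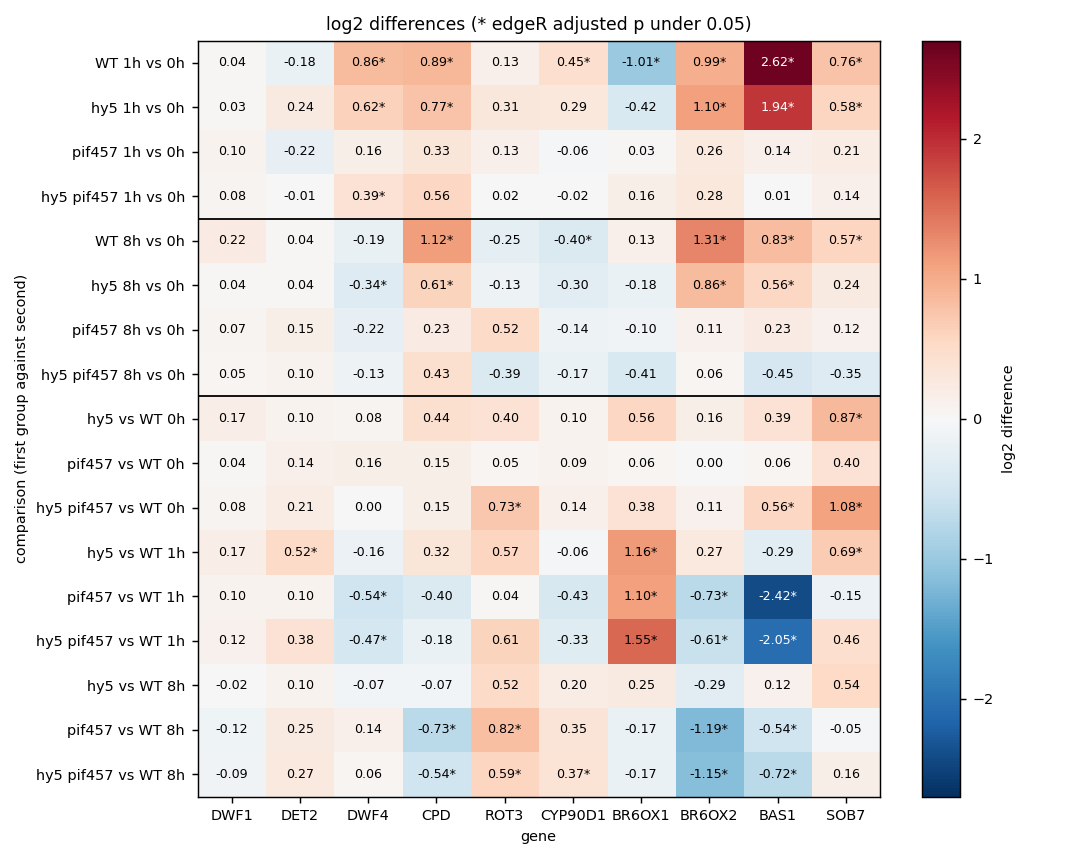
Log2 differences of the 10 genes (columns, in pathway order) in the 17 comparisons with 0 h and with WT (rows), coloured red where the first group is higher and blue where it is lower. An asterisk marks an edgeR adjusted p under 0.05. The pif457 rows against 0 h have no asterisk, and those against WT at 1 h show BAS1 at -2.42.

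The shade responses themselves were then compared between each mutant and WT. These tests share the WT libraries, so they are not independent of each other. For hy5 at 1 h, 0 of 10 genes were called, and 0% of all genes; 2409 genes had an unadjusted p under 0.05, 2 of the 10 among them, and DESeq2 called 38 genes and 0 of the 10. For BAS1 the hy5 response was smaller by 0.68 on the log2 scale with a 95% interval from -1.11 to -0.25 (adjusted p = 0.281). For hy5 at 8 h, 0 of 10 were called, against 1.53% of all, and 2 of the 10 and 3347 genes in all had an unadjusted p under 0.05. DESeq2 called 0 of the 10 and 624 genes in all there. Without hy5 8 h replicate 2, BR6OX2 was called there (-0.72, adjusted p = 0.0423, against -0.45 and 0.299). For pif457 at 1 h, 2 of 10 were called, against 0.872%, namely BAS1 (-2.48 ± 0.22, adjusted p = 2.12e-08) and DWF4 (-0.7 ± 0.12, adjusted p = 0.000802). For hy5 pif457 at 1 h, 1 of 10 was called, against 0.969%, namely BAS1 (-2.61 ± 0.22, adjusted p = 9.55e-09), while DWF4 at -0.47 ± 0.12 did not pass (adjusted p = 0.0576) but was called by DESeq2 (adjusted p = 0.0333).

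At 8 h, 2 of 10 response differences were called for pif457, against 2.92% of all, namely BR6OX2 (-1.2 ± 0.21, adjusted p = 0.00142) and CPD (-0.89 ± 0.23, adjusted p = 0.0305). For hy5 pif457, 4 of 10 were called, against 13.7%. They were BAS1 (-1.28 ± 0.22, adjusted p = 0.000388), BR6OX2 (-1.25 ± 0.21, adjusted p = 0.000359), SOB7 (-0.92 ± 0.24, adjusted p = 0.0146) and CPD (-0.69 ± 0.23, adjusted p = 0.0431). All 9 differences called in the fit of all libraries are negative, a lower response in the mutant. For SOB7 this is not a lower level under shade. Its mean at 8 h was 5.9 CPM in hy5 pif457 and 5.27 CPM in WT, and at 0 h it was 7.5 and 3.54 CPM. Among the alternatives run, positive differences were called only when 1 library was left out, for BR6OX1 at 1 h in pif457 (1.39, adjusted p = 0.0384) and hy5 pif457 (1.47, adjusted p = 0.0355) and for ROT3 at 8 h in pif457 (0.96 and 1.03, adjusted p = 0.0482 and 0.0333). With all libraries these were 1.04, 1.17 and 0.77 (adjusted p = 0.339, 0.14 and 0.125). Leaving out 1 library also added negative calls for SOB7 (-0.91, adjusted p = 0.0444) and DWF4 (-0.55, adjusted p = 0.0192) at 1 h in hy5 pif457 and for BAS1 at 8 h in pif457 (-0.75, adjusted p = 0.0497). Of the 20 root markers, 2 had a called response difference in pif457 at 8 h, both higher. The called differences of BAS1, BR6OX2 and DWF4 were called in every alternative that gave a value. Leaving out the rRNA-rich libraries gave a value only for BAS1 and DWF4 in pif457 at 1 h. For the other called differences, the mutant group and its high rRNA share cannot be told apart. The CPD call was lost without any 1 of 8 libraries for pif457 and of 11 for hy5 pif457, and the SOB7 call without any 1 of 4.

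Last, hy5 pif457 was compared with hy5, so that both groups carry the hy5 mutation. All hy5 pif457 libraries are rRNA-rich and no hy5 library is. Genotype and rRNA share therefore cannot be told apart here, nor in hy5 pif457 against WT. Summed root markers at 0, 1 and 8 h ran from 171 to 367, 111 to 216 and 45.5 to 58.1 CPM in hy5 pif457. In hy5 they ran from 43 to 117, 314 to 395 and 109 to 196 CPM. Their part was not tested beyond a model with the root marker score, which kept the calls below. At 0 h, 0 of 10 genes were called, against 0.677% of all. An unadjusted p under 0.05 was found for 0 of the 10 and 2438 genes in all, and DESeq2 called 0 of the 10 and 311 genes in all. At 1 h, 3 of 10 were called, all lower, against 3.8% of all. BAS1 stood at 29.5% of its hy5 level (-1.76 ± 0.15, adjusted p = 2.39e-09), BR6OX2 at 54.6% (-0.87 ± 0.15, adjusted p = 0.000209) and DWF4 at 80.5% (-0.31 ± 0.08, adjusted p = 0.0308). At 8 h, 3 of 10 were called, all lower, against 23.7% of all, with BAS1 at 56% (-0.84 ± 0.15, adjusted p = 0.000448), BR6OX2 at 55.2% (-0.86 ± 0.15, adjusted p = 0.000241) and CPD at 72.1% (-0.47 ± 0.16, adjusted p = 0.0339). The DWF4 call was lost with only the groups compared (adjusted p = 0.106) and without hy5 1 h replicates 2 or 3 or any replicate of hy5 pif457, with adjusted p from 0.0631 to 0.343. Without hy5 8 h replicate 2 the CPD difference was -0.2 (adjusted p = 0.457), and it was also lost without any replicate of hy5 pif457 (adjusted p from 0.0876 to 0.145) or with only the groups compared (adjusted p = 0.114). At 1 h CPD was called with the root marker score in the model (-0.54, adjusted p = 0.0455, against -0.5 and 0.0896).

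Among the 12 group means, BAS1 was highest in WT at 1 h at 35.2 CPM, next hy5 at 1 h at 28.8 CPM, whose libraries overlap with those of WT. A gap without overlap then separates hy5 at 8 h at 11.1 CPM, and WT at 0 h was lowest at 5.72 CPM. Of the 11 pairs of neighbours in its order, 8 overlap, as do 8 of DWF4, 9 of CPD and ROT3, 10 of BR6OX1, BR6OX2 and SOB7 and 11 of CYP90D1, DET2 and DWF1. The groups were sorted by mean first and no such count was made over all genes. These counts therefore show only how far each order is resolved. DWF4 was highest in WT at 1 h at 23.1 CPM and lowest in hy5 at 8 h at 10.6 CPM. CPD was highest in hy5 at 1 h at 202 CPM, BR6OX2 in WT at 8 h at 39.4 CPM, and both were lowest in WT at 0 h. SOB7 was highest in hy5 at 1 h at 9.71 CPM, and BR6OX1 was lowest in WT at 1 h at 0.805 CPM.

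The patterns over the 12 groups were compared by the root mean square difference of centred mean log2 CPM. A small value means a like pattern or little variation in both genes. Among the 10 genes, CPD and BR6OX2 were nearest to each other at 0.175, DWF4 and CYP90D1 at 0.18, and DET2 and DWF1 at 0.141. DET2 and DWF1 ranged over only 0.51 and 0.22 on the log2 scale, so their value does not show a shared pattern. BAS1 was far from all, with BR6OX2 the nearest at 0.544. Of 8739 other genes with a symbol and a mean log2 CPM of at least 2, those most like BAS1 were SHY2 (0.203), CKX6 (0.247) and MYB109 (0.281), where BAS1 itself ranged over 2.61 on the log2 scale. SHY2 is an Aux/IAA repressor of auxin signalling, CKX6 a cytokinin oxidase and MYB109 a MYB transcription factor. Those most like DWF4, which ranged over 1.12, were DOF3.1 (0.158), PMI1 (0.176) and ZIF1 (0.177).

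The other genes of the pathway are described in WT, where 5.2% of all genes were called at 1 h and 19.2% at 8 h. Of 11 sterol synthesis genes, 0 were called at 1 h and 2 at 8 h, both higher, a share near that of all genes. They were CAS1, which forms the sterol ring system, from 85.4 to 136 CPM (0.67 ± 0.13, adjusted p = 0.000658), and SMT2, a sterol methyltransferase (0.27 ± 0.07, adjusted p = 0.00549). The median log2 difference was 0.04 and 0.1. Of 6 further inactivation genes, 5 were tested. At 1 h, 1 was higher, BEN1, a reductase that lowers brassinosteroid levels (0.67 ± 0.14, adjusted p = 0.00296), and 2 were lower, the glucosyltransferases UGT73C6 (-1.31 ± 0.2, adjusted p = 7.34e-05) and UGT73C5 (-0.77 ± 0.19, adjusted p = 0.0111). At 8 h, 1 was called, UGT73C6, lower by 0.84 (adjusted p = 0.00411). UGT73C5 and UGT73C6 are close paralogs, so the division of reads between them is uncertain. The list median was 0.5 at 1 h and -0.5 at 8 h.

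Of 14 signalling genes, 4 were called at 1 h and 6 at 8 h in WT, all higher, against the same 5.2% and 19.2% of all genes. BRI1, the brassinosteroid receptor, went from 124 to 307 CPM at 1 h (1.31 ± 0.11, adjusted p = 1.21e-09) and 261 CPM at 8 h (1.07 ± 0.11, adjusted p = 4.36e-08). BEH4 and BEH2, homologs of BES1 and BZR1, rose by 0.93 ± 0.12 (adjusted p = 4.13e-06) and 0.55 ± 0.1 (adjusted p = 0.000608) at 1 h. At 8 h BEH1 was higher by 0.99 ± 0.14 (adjusted p = 1.02e-05) and BZR1 by 0.36 ± 0.07 (adjusted p = 0.000879). Among those higher at 8 h was also BIN2, a kinase that inhibits the pathway (0.35 ± 0.07, adjusted p = 0.00169), named here after its value was seen. The list median was 0.18 and 0.07. At 1 h in pif457 and in hy5 pif457, 0 of the 14 were called against 0 h, where only 0.227% and 0.181% of all genes were. Of 4 regulators known for acting on synthesis genes, 3 were tested. BRX rose at 1 h (1.52 ± 0.2, adjusted p = 4.27e-06) and 8 h (1.12 ± 0.2, adjusted p = 0.000182), and TCP1, at 0.402 CPM or less in the mean of each WT group, was lower at 8 h (adjusted p = 0.0111), with no fold given at so low a level. COG1 was not called, and the list median was 0.15 and -0.06.

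**Figure D5:**
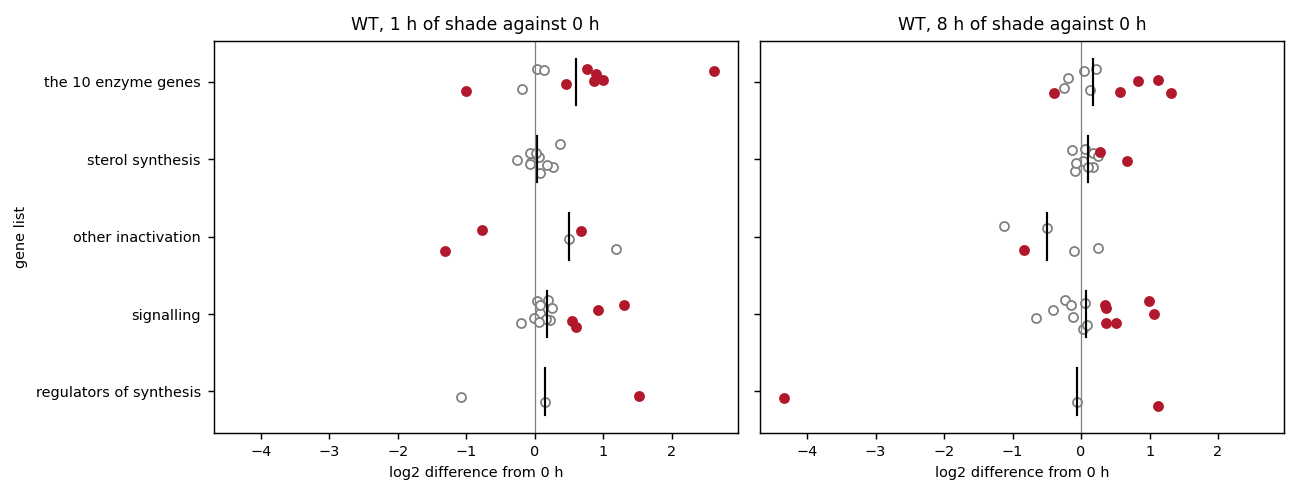
Log2 difference from 0 h in WT for the genes of each list after 1 h (left) and 8 h (right). Filled points are called by edgeR, open points are not, and bars are list medians (0.61 and 0.18 for the 10 enzyme genes). At 1 h the sterol synthesis genes lie between -0.26 and 0.37, at 8 h CAS1 reaches 0.67, and BAS1 at 2.62 is the point farthest right at 1 h.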

How the data were processed

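RNA was measured by stranded, paired-end mRNA sequencing. The deposited values are expected counts per gene that the authors made with STAR 2.5.3a and RSEM 1.3.0 on TAIR10, per the submitters' processing notes, and all were whole numbers. The strand setting is not given in the sources used here. Coordinates, lengths and promoters come from RefSeq's TAIR10.1, which held 32548 of 32833 identifiers.

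All 36 libraries were fitted together with 12 group means in edgeR 4.0.16 (R 4.3.3), with TMM scaling, filterByExpr (minimum count 10, minimum total 15), the quasi-likelihood F-test and Benjamini-Hochberg adjustment over all 21562 genes of each of 27 comparisons. SE is the absolute log2 difference over the square root of F, and ± is SD for levels and SE for log2 differences. p-values measure the spread between the samples labelled as biological replicates. No 2 replicates agreed within sampling noise (lowest chi-square per degree of freedom 3.92).

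Counts were simulated from each gene's mean over all 36 libraries and its fitted spread. A small set of genes was changed in WT at 1 h. In the test of WT at 1 h against 0 h (21429 genes tested), 41.8% of 1.5-fold, 66.7% of 2-fold and 87.9% of 4-fold changes were recovered. Of 21230 unchanged genes, 3 were called. Each count was drawn independently, so variation shared by many genes of a library, such as that of the root markers, was not simulated. The rates hold for that setting and can differ in the real data. The members and gene lists were chosen with earlier results of these data known. All 10 members are named. Of each other list, up to 3 genes with the smallest adjusted p in WT at 1 h or 8 h are named, and for BAS1 and DWF4 the 3 genes most alike in pattern.

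The labels do not say that replicate numbers pair samples. Deviations of same-numbered samples correlated over 0.1 in all 3 pairs in 4 comparisons, namely hy5 at 1 h against 0 h (0.286, 0.262 and 0.222), pif457 at 1 h (0.566, 0.585 and 0.184) and 8 h (0.109, 0.331 and 0.455), and hy5 pif457 against WT at 1 h (0.282, 0.513 and 0.413). A block fit of only those groups was added after seeing the data. Other alternatives were RLE scaling, DESeq2 1.42.0, other filters, a replicate block, only the groups compared, a root marker covariate, libraries left out, and rRNA and organelle genes or the 12 rRNA-rich libraries left out.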

Additional observations from a re-analysis of the deposited data

Results flagged for a closer look

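The shade response of a mutant differed from that of WT in 9 tests of the difference itself (edgeR, interaction of genotype and time, n = 3 per group), and each was lower in the mutant. After 1 h, the BAS1 response was different by log2 -2.48 ± 0.22 (SE) in pif457 (adjusted p = 2.12e-08). In hy5 pif457 it differed by -2.61 ± 0.22 (adjusted p = 9.55e-09). The DWF4 response at 1 h differed by -0.7 ± 0.12 in pif457 (adjusted p = 0.000802). After 8 h, the BR6OX2 response differed by -1.2 ± 0.21 in pif457 (adjusted p = 0.00142), and its difference in hy5 pif457 was -1.25 ± 0.21 (adjusted p = 0.000359). The CPD response at 8 h differed by -0.89 ± 0.23 (adjusted p = 0.0305) and -0.69 ± 0.23 (adjusted p = 0.0431) in the same mutants. In hy5 pif457 at 8 h, BAS1 differed by -1.28 ± 0.22 (adjusted p = 0.000388) and SOB7 by -0.92 ± 0.24 (adjusted p = 0.0146). Before shade, at 0 h, both genes were already higher in hy5 pif457 than in WT, SOB7 by 1.08 (adjusted p = 0.000292) and BAS1 by 0.56 (adjusted p = 0.0207). At 8 h the mean of SOB7 was 5.9 CPM in hy5 pif457 and 5.27 CPM in WT, and that of BAS1 6.18 and 10.2 CPM. The libraries of pif457 at 8 h and of hy5 pif457 are those with 6.01% to 11.6% rRNA counts, and the part of this in the differences was not tested beyond leaving out rRNA and organelle genes, which ended the CPD call in hy5 pif457 (-0.62, adjusted p = 0.0752).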

How the results depend on the processing

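Of 270 pairs of gene and comparison, 65 were called, 32 of them in every alternative that gave a value and 33 not in at least 1, and no called difference changed sign. In the fit of all libraries, the share of all genes called ran from 0% to 23.7% by comparison. With only the groups compared, calls in the 8 shade comparisons fell from 22 to 14, and the cause was not tested beyond the smaller number of samples in each fit. Shares of all genes called under the alternatives are not given here. Whether this fall, or the ranges that follow, is particular to the genes described therefore cannot be told. Leaving out 1 library at a time gave 17 to 23 calls in the shade comparisons, 4 to 4 in WT at 8 h against 1 h, 18 to 28 for mutants against WT (24 in all libraries), 6 to 11 for response differences (9) and 4 to 6 for hy5 pif457 against hy5 (6). With the replicate number as a block in the fit of all libraries the counts were 21, 4, 23, 9 and 6. The calls not made there were DWF4 in hy5 pif457 at 1 h against 0 h (adjusted p = 0.0551) and CYP90D1 in hy5 pif457 against WT at 8 h (adjusted p = 0.0538). In the block fit of only the groups compared, added after seeing the data, 4 calls against 5 were made in its 3 shade comparisons and 6 against 4 in hy5 pif457 against WT at 1 h, and apart from CPD, ROT3 and DET2 named above no other call changed. The CPD response difference at 8 h had adjusted p from 0.0599 to 0.115 without 1 of 8 libraries, 0.258 with the root marker covariate and 0.159 with only the groups compared for pif457, and from 0.0614 to 0.141 without 1 of 11 libraries and 0.0662 with RLE scaling for hy5 pif457. The SOB7 difference had adjusted p from 0.0501 to 0.063 without 1 of 4 libraries. Without WT 0 h replicate 3 it stayed just under the threshold. Leaving out the rRNA-rich libraries gives no value for hy5 pif457 or for pif457 at 8 h, so the calls there were not put to that alternative. It ended the calls of CYP90D1 at 1 h (adjusted p = 0.102) and SOB7 at 8 h (adjusted p = 0.0502) in WT and of SOB7 at 1 h in hy5 (adjusted p = 0.0694). Depth limits BR6OX1 most, with as few as 21 counts.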
